A study of Mus musculus with 2 samples.

Results

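The HP1β peaks described here lie in 4 genes on distal chromosome 4: Gm13242, 1700095A21Rik, Gm16889 and Gm17317. They were taken from a ChIP-Seq experiment in E14 mouse ESCs of the 129P2/Ola strain, an established line kept with LIF on gelatine. The authors' methods also list E14 among the ESC lines grown on feeder cells, which were mouse embryonic fibroblasts. DNA bound by HP1β was recovered with an antibody, sequenced, and compared with 1 library of input DNA from ESCs of the same strain and culture. A peak belonged to a gene if its midpoint fell in the gene body of the GENCODE vM1 annotation (mm9), and 9 of the 1280 peaks of the list did. The 4 genes lie within 2 Mb, referred to below as the region, which holds 20 peaks in all. The genes were selected on their peaks: they hold the second and the third highest scores of the list, so the scores below are a description and were not tested. There was 1 HP1β ChIP library with no replicate and no other cell type or treatment, and because read numbers are not in the list, the depth behind each peak is unknown.

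HP1β is one of the HP1 proteins, which recognise methylated lysine 9 of histone H3 through their chromodomain and are best known from heterochromatin. Genes for C2H2 zinc finger proteins often stand in clusters of related copies, and many of these proteins carry a KRAB domain, through which they recruit TRIM28 and the machinery that sets this histone mark, mostly at retroelements. Clusters of such genes are themselves a known place of HP1β and of the mark in several cell types, and the distal end of mouse chromosome 4 holds one of these clusters. The score of a peak is the value given by the peak caller MACS, which is the negative log10 of its p-value against the input multiplied by 10, and the list begins at a score of 30.

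Of the 4 genes, only Gm13242 (ENSMUSG00000058186.6) is annotated as protein-coding. It lies on the plus strand at chr4:145104787-145294344, spans 189.6 kb, is named Zfp980 in GRCm38.p6 and encodes a zinc finger protein with 14 matches to the C2H2 pattern. 1700095A21Rik (ENSMUSG00000086046.1) is a noncoding processed transcript of 27.8 kb on the plus strand at chr4:145651166-145679000. Gm16889 (ENSMUSG00000084976.1, chr4:146392344-146866310, minus strand, 474.0 kb) and Gm17317 (ENSMUSG00000091833.1, chr4:146510387-146831128, plus strand, 320.7 kb) are long intergenic noncoding RNA genes on opposite strands whose bodies overlap. Gm13242 held 5 peaks and 1700095A21Rik held 1. The remaining 3 lay in the shared part of Gm16889 and Gm17317, so both genes hold the same peaks and are not independent of each other.

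The sequences of the strongest peaks are given first, because their copies elsewhere in the genome bear on how the peaks can be read. The plus strand of mm9 is printed. Capitals mark the bases that are covered by at least one 50-base stretch with a single place in the assembly, up to 1 mismatch. Lower case marks bases that no such stretch covers. First comes the whole peak of score 73.5, the highest of the 9 (chr4:146784551-146784847), of which 187 of 297 bases are covered.
Gm16889 and Gm17317, score 73.5: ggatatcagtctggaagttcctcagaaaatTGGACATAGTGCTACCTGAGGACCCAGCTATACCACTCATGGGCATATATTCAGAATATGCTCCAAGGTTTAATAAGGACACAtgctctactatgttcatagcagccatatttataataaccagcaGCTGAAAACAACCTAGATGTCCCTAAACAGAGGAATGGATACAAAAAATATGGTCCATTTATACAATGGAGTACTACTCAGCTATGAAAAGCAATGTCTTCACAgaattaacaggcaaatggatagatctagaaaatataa

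The next sequences are from the peak of score 64.6 in Gm13242, of which the central 300 of 936 bp are shown (chr4:145149282-145149581), and from the peak of score 47.0 in Gm16889 and Gm17317, of which the central 300 of 549 bp are shown (chr4:146811011-146811310).
Gm13242, score 64.6: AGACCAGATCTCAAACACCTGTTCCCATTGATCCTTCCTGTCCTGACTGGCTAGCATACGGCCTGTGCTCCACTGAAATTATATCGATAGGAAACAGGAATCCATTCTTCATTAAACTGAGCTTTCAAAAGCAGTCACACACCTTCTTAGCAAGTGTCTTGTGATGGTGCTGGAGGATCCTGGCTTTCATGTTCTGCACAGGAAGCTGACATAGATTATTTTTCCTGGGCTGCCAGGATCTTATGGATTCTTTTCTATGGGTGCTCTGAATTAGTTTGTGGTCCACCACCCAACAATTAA
Gm16889 and Gm17317, score 47.0: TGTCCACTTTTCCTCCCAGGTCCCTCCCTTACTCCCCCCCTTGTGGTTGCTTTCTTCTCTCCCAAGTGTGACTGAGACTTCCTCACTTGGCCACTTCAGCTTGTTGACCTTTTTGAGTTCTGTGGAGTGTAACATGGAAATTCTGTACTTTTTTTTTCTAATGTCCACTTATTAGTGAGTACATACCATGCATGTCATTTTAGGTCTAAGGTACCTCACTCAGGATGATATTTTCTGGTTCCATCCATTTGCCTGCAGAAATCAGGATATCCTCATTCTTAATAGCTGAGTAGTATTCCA

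A further peak of Gm13242, with a score of 41.0 (chr4:145269492-145269594), is shown because it has many near-identical copies within the cluster. Printed in the same way, it has 63 of 103 bases in capitals.
Gm13242, score 41.0: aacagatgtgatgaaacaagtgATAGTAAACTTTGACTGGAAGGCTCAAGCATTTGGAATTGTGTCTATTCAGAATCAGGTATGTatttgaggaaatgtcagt

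Its closest copies lie in the body of Gm13247 (chr4:145679166-145679268, minus strand) and in that of Gm13051 (chr4:146074075-146074177), both zinc finger genes of the cluster, and here capitals mark the bases at which the copy differs from the peak. The first copy is written in the direction of the peak, that is from the minus strand.
Copy in Gm13247: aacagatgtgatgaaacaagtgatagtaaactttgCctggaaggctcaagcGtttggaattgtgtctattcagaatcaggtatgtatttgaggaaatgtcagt
Copy in Gm13051: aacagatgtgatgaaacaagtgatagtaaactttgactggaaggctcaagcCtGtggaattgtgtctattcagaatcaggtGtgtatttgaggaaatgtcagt

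Gm13242 carried the longest series of peaks. Its strongest, with a score of 64.6, was 936 bp wide (chr4:145148964-145149899) and ranked 3 among the 1280 peaks. The next along the gene were a peak of score 39.5 and 552 bp (chr4:145163845-145164396) and one of score 32.9 and 272 bp (chr4:145165377-145165648), 980 bp apart. These flanked the pseudogene Gm13228, the first ending 35 bp before it and the second beginning 313 bp after it. Further on were a peak of score 30.4 (chr4:145235739-145235885), close to the cutoff of the list, and the peak of score 41.0, only 103 bp wide (chr4:145269492-145269594). One of the 5 was therefore among the strongest of the list, while the others ranked 148, 188, 676 and 1115.

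All 5 peaks of Gm13242 were intronic. The first 4 lay in intron 1 of the longest of its 3 transcripts, an intron of 157.7 kb that the other transcripts do not have, since they begin downstream of these peaks. The longest transcript starts at the same base as a transcript of the zinc finger gene Gm13225 (Zfp990), whose body it crosses. In contrast, the peak of score 41.0 lay in intron 2 of each of the 3 transcripts, 6.8 kb from the nearest exon. From the nearest exon of the gene, the strongest peak was 44.0 kb away, and the peaks of score 39.5, 32.9 and 30.4 were 58.9, 60.5 and 24.7 kb away. The last 2 peaks also lay in an intron of Gm17609, a noncoding RNA gene on the opposite strand, so that the gene to which they belong cannot be told apart from the position alone. None of the 5 peaks reached the zinc finger array near the 3′ end of Gm13242 (chr4:145291362-145293017), which began 21.8 kb after the last peak.

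1700095A21Rik had a single, weak peak, with a score of 31.8 and a width of 568 bp (chr4:145661559-145662126), which ranked 853. It lay in intron 2 of the only transcript, 26.2 kb long, and 10.4 kb from the start of the gene. At the same place, on the opposite strand, is the zinc finger gene Gm13247 (Zfp981 in GRCm38.p6), and the peak fell in the last intron of both of its transcripts, 297 bp from an exon and 860 bp from the zinc finger array. It was the member closest to zinc finger coding sequence. In Gm13247 this intron is 1.2 kb long, so by distance to exons the peak was much nearer to the protein-coding gene than to the noncoding one.

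Gm16889 and Gm17317 shared 3 peaks near the end of their common part. Their strongest peak, with a score of 73.5 and a width of 297 bp, ranked 2 in the list, behind only the peak of score 87.4 in Bicd1 on chromosome 6. A peak of score 47.0 and 549 bp (chr4:146810887-146811435, rank 44) and one of score 33.2 and 156 bp (chr4:146812740-146812895, rank 637) followed, 1304 bp apart. All 3 were in intron 1 of the longer transcript of Gm16889 (131.3 kb) and in intron 2 of the only transcript of Gm17317 (138.9 kb). They were 49.6, 54.8 and 53.4 kb from the nearest exon of Gm16889. From the nearest exon of Gm17317 they were 44.4, 17.8 and 16.4 kb away. The other transcript of Gm16889 starts downstream of them on the minus strand and does not contain them. The nearest gene start was that of the pseudogene Gm8178 for the strongest peak, at 31.5 kb, and that of the vomeronasal receptor pseudogene Vmn2r-ps19 for the others, at 6.1 and 4.7 kb.

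**Figure D1:**
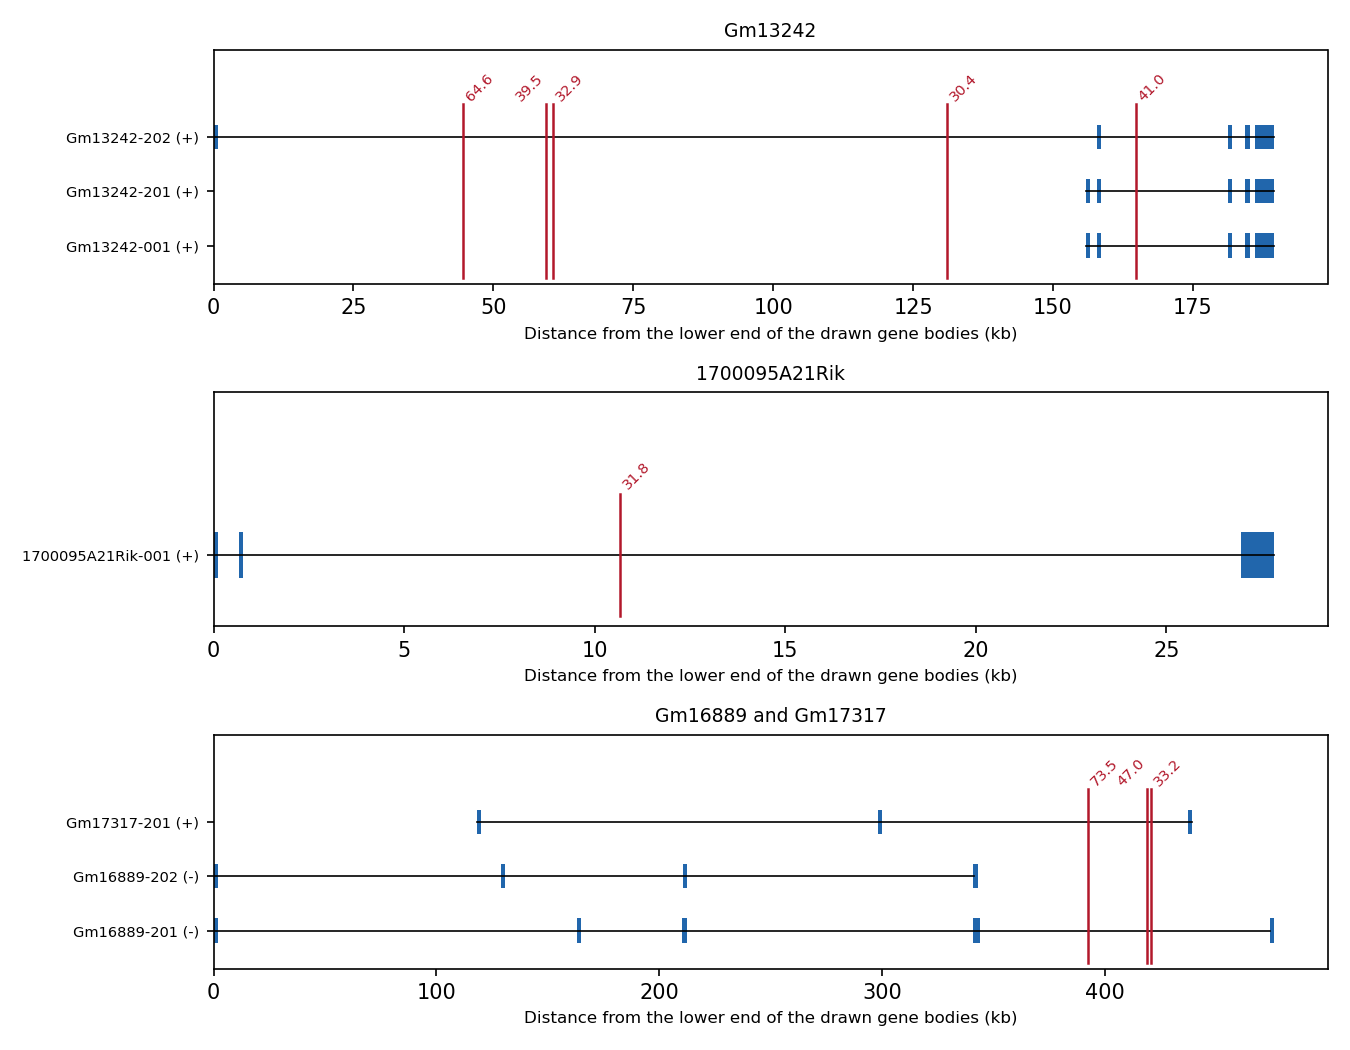
Transcripts of the 4 genes (blue boxes, exons, with very short exons widened to be visible; black lines, introns; strand in parentheses) with the 9 HP1β peaks as red lines labelled with their MACS scores, against the distance in kb. Each peak falls between exons: 5 in Gm13242, 1 in 1700095A21Rik and 3 in the part shared by Gm16889 and Gm17317.

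By position, then, the 9 peaks had no exon among them: 0 of 9 midpoints fell in an exon of any annotated gene, and 0 of 9 peaks touched one by a single base. Of the 753 peaks of the list that lie in gene bodies, 87.8% are in introns, so an intronic place is also the usual one. This share was not set against the lengths of introns and exons, so it does not show a preference for introns. The paper reports that HP1β in ESCs was more enriched in exons than in introns. Having a peak at all is rare, with 1.83% of the 37273 annotated genes. Here it was the condition on which the genes were chosen. The rule left out a peak of score 42.4 (chr4:146870834-146871407) whose midpoint is 4.8 kb upstream of the start of Gm16889, in an intron of the zinc finger gene Gm13152. Just inside the rule, the midpoint nearest to the edge of a body was that in 1700095A21Rik, 10.7 kb from its start. At the limits of the region there was no such close case: the nearest peaks outside it were 3470.3 kb before (score 34.0) and 1626.7 kb after (score 30.9).

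The scores of the 9 peaks ran from 30.4 to 73.5, with a median of 39.5, where the median of the list was 33.2. A score of 50 or more was reached by 2 of the 9 peaks, against 1.88% of all peaks, and a score of 40 or more by 4 of the 9, against 13.6%. Since high scores chose the genes, nothing is read from these shares. The other 11 peaks of the region had scores from 30.2 to 53.2 and a median of 34.9. Of these 11, 5 scored 40 or more and 1 scored 50 or more. The 9 peaks were between 103 and 936 bp wide, with a median of 297 bp against 250 bp for the list. Per kb of width, the order of the members changed: the 103 bp peak in Gm13242 came first with 398 and the peak of score 73.5 second with 247, while the 936 bp peak of score 64.6 had 69.0, less than the median of the list (135).

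**Figure D2:**
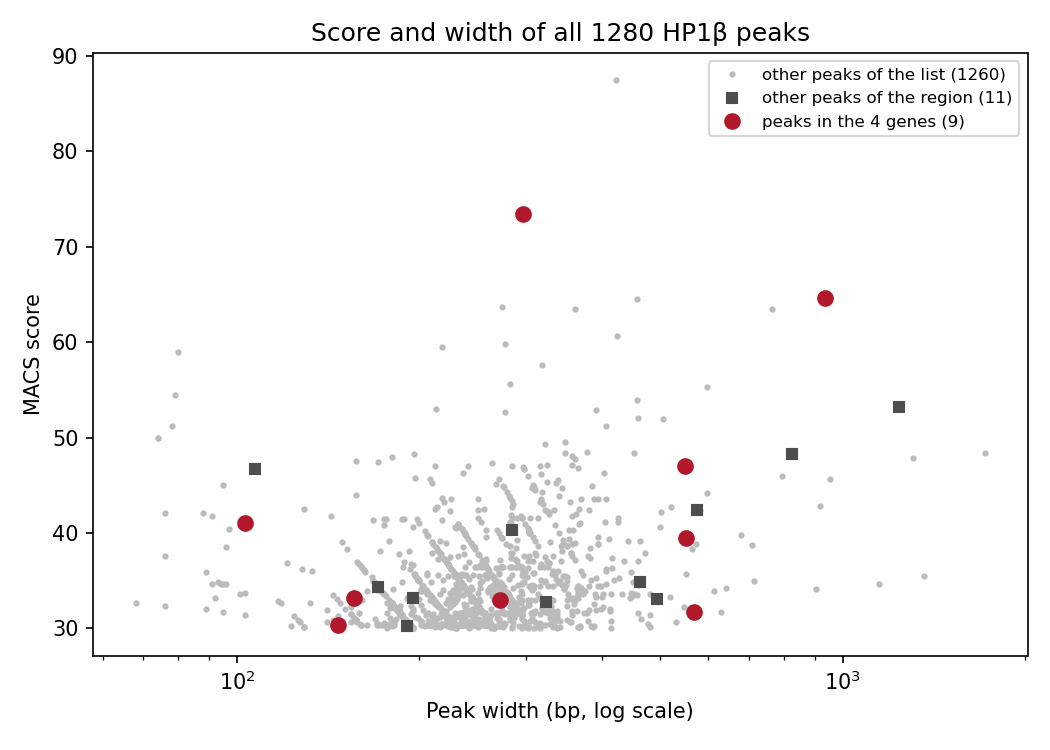
MACS score of each of the 1280 HP1β peaks against its width in bp on a log scale. The 9 peaks in the 4 genes (red) are spread from the cutoff up to 73.5 and from 103 to 936 bp, and the 11 other peaks of the region (dark squares) lie between 30.2 and 53.2.

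The protein-coding genes around the peaks are for the most part zinc finger genes. The annotation has 77 genes within the region, of which 18 are protein-coding and 45 are pseudogenes. Symbols alone name 2 of them as zinc finger genes, Zfp600 and Rex2, because the annotation gives most of the cluster provisional names. When the coding sequences were translated, 14 of the 18 protein-coding genes held 3 or more C2H2 matches, with up to 20 in Gm13212. Of these 14, 10 have a Zfp name in GRCm38.p6, such as Zfp990 for Gm13225, Zfp992 for Gm13251, Zfp987 for Gm13051, Zfp991 for Gm13139 and Zfp985 for Gm13154. In the genome sequence itself 21 arrays of at least 3 matches were found, 18 of them on the plus strand, and 16 of the 21 lay over an exon of a protein-coding gene. The bodies of the 4 genes hold 9 of these arrays. The array at chr4:145291362-145293017 is that of Gm13242 itself, and that at chr4:146633062-146633292 overlaps only Gm16889 and Gm17317. The others lie over further protein-coding genes that the 4 genes overlap. Gm13225 and Gm13212 overlap Gm13242, and Gm13138, Gm13139, Gm13151 and Gm13145 lie within or across Gm16889. Gm13151 (Zfp988 in GRCm38.p6) is not among the 14, with 0 matches in its annotated coding sequence.

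None of the 21 arrays was touched by any of the 20 peaks of the region. These peaks cover only 8443 bp of the 2 Mb, so few overlaps would arise by position alone. Nothing is read from their absence. Among the 9 peaks the distance to the nearest array ran from 860 bp to 46.8 kb, with a median of 21.8 kb. Among the zinc finger genes of the region, 3 of the 14 had a peak in the body: Gm13242 with 5, Gm13152 (Zfp982) with 3 and Gm13247 with 1. In the whole annotation this was so for 1.75% of the 628 protein-coding genes with 3 or more matches. However, Gm13242 was chosen for its peaks, and the peak in Gm13247 is that of 1700095A21Rik. Nothing is therefore read from the difference between these shares. The other 11 zinc finger genes of the region, Zfp600 and Rex2 among them, had none. The closest protein-coding gene starts to the peak of score 73.5 were those of Gm13145 (Zfp978), 49.1 kb before it, and of Gm13152, 81.7 kb after it. For the peak of score 64.6 they were the outer start of Gm13242 itself at 44.2 kb and that of Gm13212 at 25.2 kb.

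**Figure D3:**
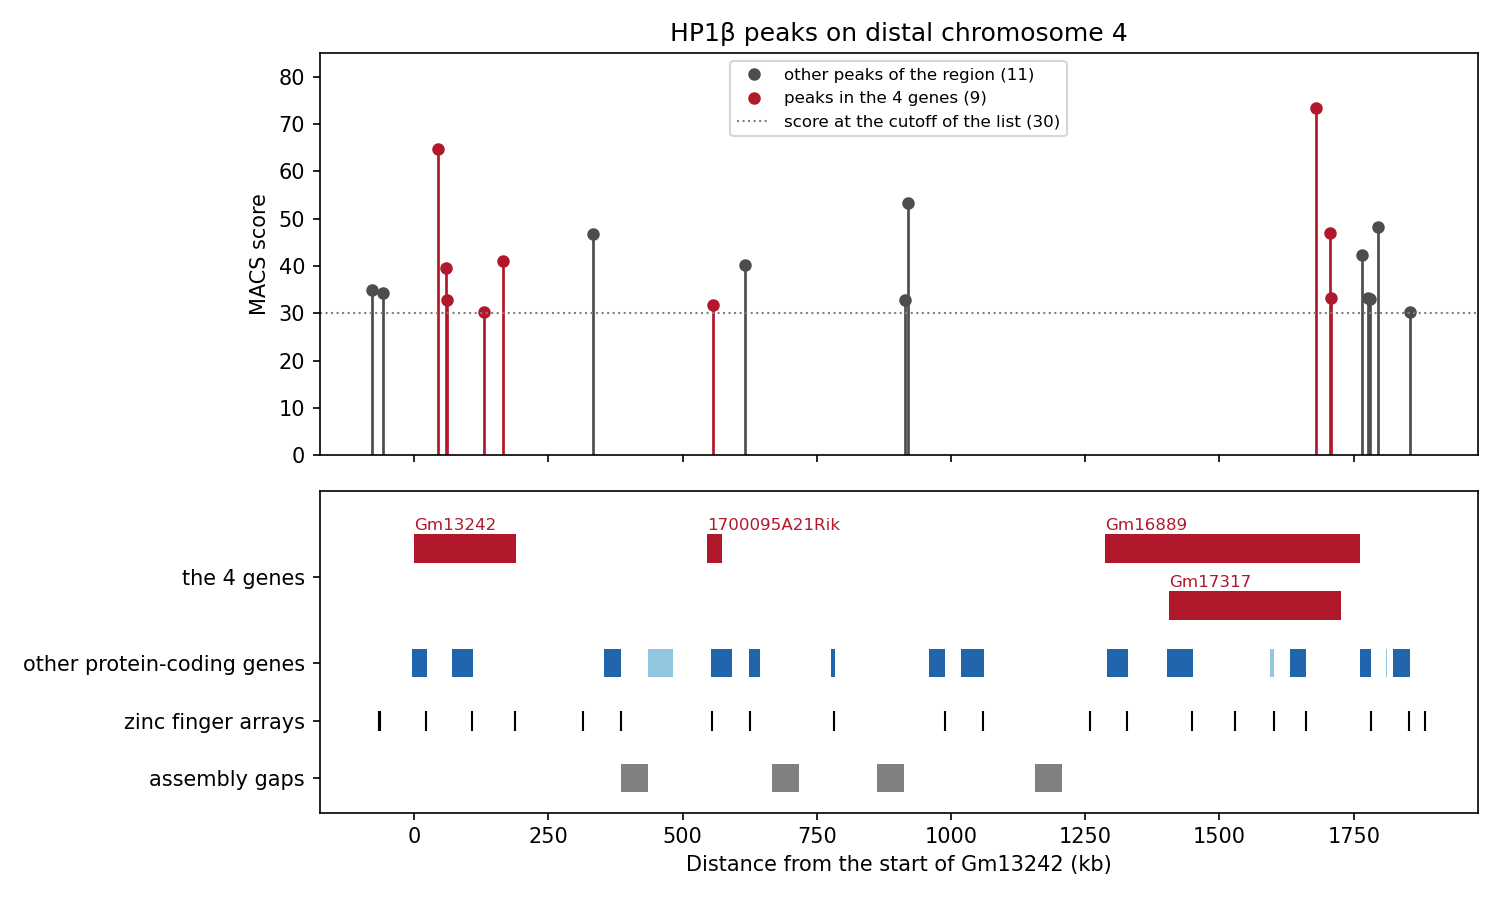
Scores of the 20 HP1β peaks of the region on chromosome 4 (red, 9 peaks in the 4 genes; grey, 11 others; dotted line, the score of 30 at which the list begins) against the distance in kb from the start of Gm13242. The lower tracks show the 4 genes, the other protein-coding genes (dark blue, 3 or more C2H2 matches; light blue, fewer), the 21 zinc finger arrays and the 4 assembly gaps, and no peak stands on an array.

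Much of the sequence under the peaks occurs elsewhere in the genome in similar form, and the authors used only uniquely aligned reads with at most 1 mismatch. All possible 50-base stretches of each peak were therefore searched on both strands of the assembly. Over the 9 peaks, 92.6% of the stretches had no second exact place, against 96.8% over the list. When a second place with up to 1 mismatch also counted, the share was 77.9%, against 94.2% over the list. By this measure the peak in 1700095A21Rik was the most distinct, with 97.9% of its stretches unique. Those of score 47.0 and 64.6 had 88.4% and 87.0%, those of score 30.4 and 39.5 had 84.7% and 77.3%, and that of score 33.2 had 64.5%. The lowest shares were found for the peak of score 41.0 in Gm13242 (25.9%), the peak of score 73.5 (31.5%) and the peak of score 32.9 (39.9%). Under 80% of the stretches were unique in 5 of the 9 peaks, and in 7 of the 11 other peaks of the region, where 6.64% of all peaks were below this limit. A strong score was thus found both at a largely unique sequence (64.6) and at a largely repeated one (73.5). How far the copies shaped the scores was not tested.

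**Figure D4:**
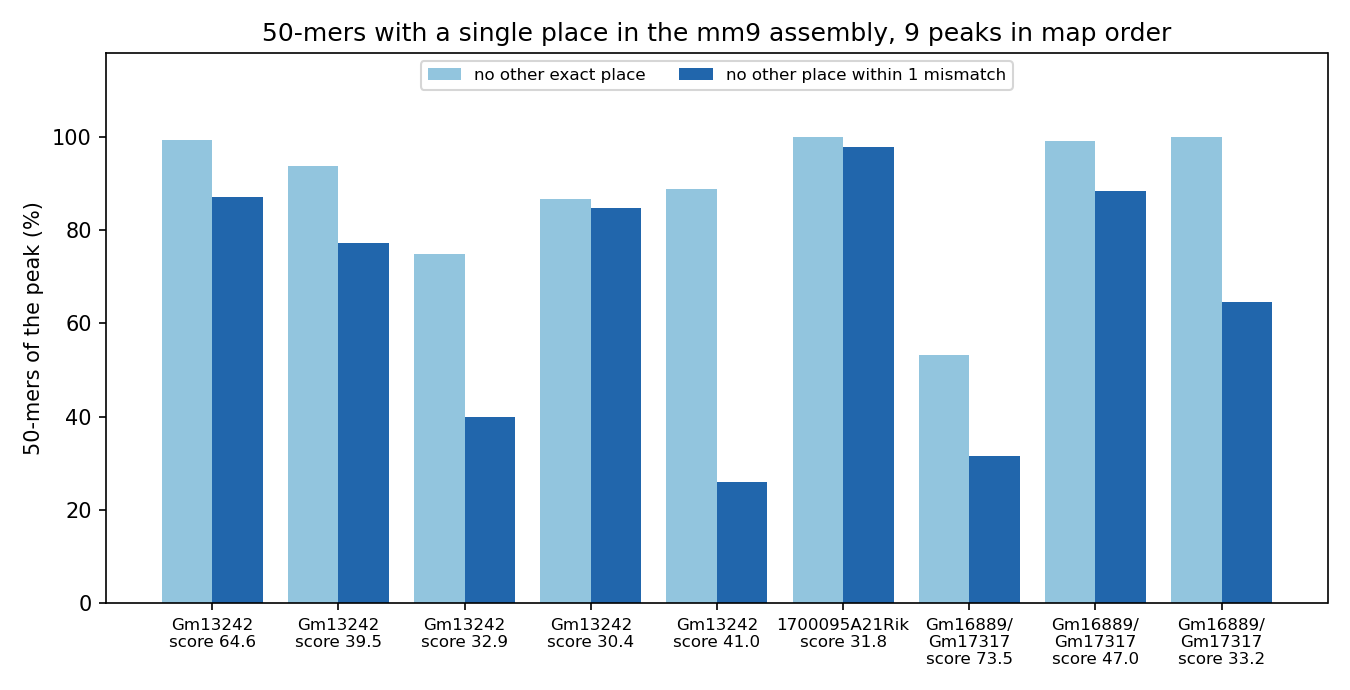
Percent of the 50-base stretches of each of the 9 peaks with no second place in mm9, by exact match (light bars) and with up to 1 mismatch allowed (dark bars), in map order with the gene and the MACS score below. The dark bars run from 25.9% for the peak of score 41.0 to 97.9% for the peak in 1700095A21Rik.

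The copies were of different kinds. A copy was counted where at least 80% of the peak aligned at 85% identity or more. Of the 32 copies that lay in the region, 13 belonged to the peak of score 41.0, which had 16 in all, and 12 of the 16 were at least 95% identical. The closest, printed above, differs at 2 of 103 bases. For the peak of score 39.5 there were 8 copies, 7 in the region, and the closest was 93.1% identical. For the peak of score 64.6 there was 1 copy, 91.6% identical, at chr4:146894102-146895046, across the pseudogene Gm15951 and 4.0 kb before another peak of the region (score 48.3).

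Other members were made of sequence that is scattered through the genome. For the peak of score 73.5 there were 1160 copies, 0 of them in the region, and 3 of the 1160 were at least 90% identical. Its sequence reads as part of the second open reading frame of a LINE-1 retrotransposon, which is background knowledge and was not taken from a repeat annotation. Its closest copy, 98.0% identical over 297 aligned bp, lies on an unplaced contig of the assembly. Likewise, the peak of score 30.4 had 353 copies, 347 of them outside the region, and the peak of score 33.2 had 67, of which 62 were outside. The closest copies of these peaks were nevertheless local: that of the peak of score 30.4 was 98.0% identical, at chr4:146654581-146654727 in Gm16889 and Gm17317, and those of the peak of score 33.2 were 95.5% identical, at chr4:145949139-145949294 and at chr4:146494499-146494654 in Gm16889. In the peak of score 32.9 one 50-base stretch occurred 3751 times, and its first part reads as a B1 element, a short interspersed repeat. The peak of score 47.0 had 1 copy under the limits set for a copy, which leave out shorter alignments. However, 63.6% of its bases were covered by 100 or more shorter alignments. The reverse complement of its printed part also begins with bases that resemble the end of the peak of score 73.5. Its low number of copies therefore does not show that its sequence is of another kind. The peak in 1700095A21Rik had no copy under the same limits, and 16.9% of its bases were covered by 10 or more alignments. By eye, part of it resembles the sequence of the peak of score 30.4, in more diverged form. The absence of a copy therefore does not show that it is free of repeated sequence.

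None of the copies carried a peak of its own. Of the 1608 copies of the 9 peaks, 32 within the region, 0 overlapped a peak of the list. Between the 20 peaks of the region, no alignment of at least 85% identity was found under the limits of the search. These limits leave out shorter or more diverged alignments, and some members resemble each other by eye, as described above. The absence of such an alignment therefore does not show that the peaks are unrelated in sequence. The whole list covers only 345327 bp of the assembly, and only uniquely aligned reads were used. A peak on a copy would be rare in any case, so nothing is read from its absence.

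In base composition the 9 peaks had a median GC content of 43.5%, from 35.9% in the peak of score 41.0 to 55.1% in the peak of score 30.4, where the median of the list was 47.4%. Among them, the peaks of score 73.5, 41.0 and 33.2 contained 0 CpG dinucleotides, and the peak of score 64.6 contained 6. The members of score 73.5, 64.6, 47.0 and 41.0 had a GC content of 37.4%, 42.1%, 44.3% and 35.9%, each below the median of the list. The other 11 peaks of the region had a median of 38.0%. The CpG numbers were not scaled to peak width. The assembly of the region holds 4 gaps of 50 kb each, and the 9 peaks lay 109.3 to 501.9 kb from the nearest of them. The cells are of the 129P2/Ola strain, while mm9 is the genome of another strain. The number of copies of these sequences in the cells, and its part in the peaks, was not tested.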

How the data were processed

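HP1β ChIP-Seq was available for 1 ChIP library and 1 input library of E14 ESCs, with no replicates. According to the methods and the labels, the authors aligned single reads of 50 bases to mm9 with Bowtie, taking unique alignments with at most 1 mismatch, and called peaks with MACS 1.4 against the input (p-value cutoff 0.001, fold range 8 to 30). The score in the deposited peak list is the authors' MACS value, the negative log10 of the p-value multiplied by 10, and the other deposited columns used are the peak start and end. Read numbers per peak are not in the list. The depth is therefore unknown, and no interval was computed from it.

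Peaks were assigned by midpoint to the bodies of GENCODE vM1 genes on the NCBIM37 assembly (mm9), and positions are counted from 1. Stretches of 50 bases were counted on both strands of the whole assembly, exactly and with up to 1 mismatch. The counting was tested on simulated sequence with planted copies. Copies were found with BLAST+ 2.17.0 (blastn, identity of at least 85%, E-value 1e-10, at least 80% of the peak). C2H2 matches were sought in the translated GENCODE coding sequences and in all frames of the genome sequence. The pattern allowed wider spacing in the coding sequences, and overlapping matches were counted only in the genome sequence. The match numbers of genes and of arrays are therefore not on the same scale. Arrays were at least 3 matches with no more than 300 bp between neighbouring starts. Newer gene names, without coordinates, came from RefSeq (GRCm38.p6), and 55 of the 77 genes of the region matched.

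The members and lists were chosen with earlier results of these data known, and no test was made, since the scores selected the members. Named genes were the 4 genes, genes with a peak between 145 and 147 Mb, the nearest gene starts and protein-coding genes, the zinc finger genes of the region and the gene at the highest score. Those counted as zinc finger genes by C2H2 matches were added after the annotation was seen. Alternatives were other score thresholds, assignment by overlap, other lengths and windows for the stretches, and other definitions of a zinc finger gene. Python 3.11.15, numpy 2.4.6, pandas 2.3.3, scipy 1.17.1, numba 0.67.0, pysam 0.24.0, biopython 1.88, samtools 1.23.1 and matplotlib 3.10.9 were used.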

Additional observations from a re-analysis of the deposited data

How the results depend on the processing

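The 6 results were recomputed under 18 alternatives, 14 planned and 4 added after the data were seen, and 6 of the 18 left the value unchanged or, for a count, within 1.5 times. The 9 peaks in the 4 genes became 4 at a score of 40 or more and 2 at a score of 50 or more, and the 20 peaks of the region became 9 and 3. The median score of 39.5 corresponds to 121 per kb of peak width, on another scale. The share of unique stretches in the 9 peaks, 92.6% at 50 bases, was 80.6% at 36 bases, 99.6% at 100 bases and 73.3% in 1 kb around the midpoints. In the added alternatives it was 77.9% with up to 1 mismatch and 52.6% with up to 1 mismatch in the 1 kb windows. The 2 zinc finger genes known by symbol became 14 by C2H2 matches in the translated coding sequences and 21 as arrays in the genome sequence, both added. C2H2 matches in RefSeq proteins were not run, since no such proteins were used here. The number of peaks in exons was 0 by midpoint and 0 by overlap. No paired analysis was possible because there was 1 library of each kind and no test. With 1 library and no read numbers, the part of depth in the scores was not tested, and a site below the cutoff is not in the list.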

Other observations

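Beside the 9 peaks of the 4 genes, the zinc finger gene Gm13152 (Zfp982) held 3 peaks on chromosome 4, all intronic. Their scores were 42.4 (chr4:146870834-146871407), 33.2 (chr4:146882170-146882364) and 33.1 (chr4:146885585-146886078), one in each intron of its longer transcript. The last was 376 bp from an exon and 612 bp from the zinc finger array of the gene, the shortest distance to an array among the 20 peaks of the region. In the other zinc finger gene with a peak in its last intron, Gm13247, this distance was 860 bp.

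Of the 11 peaks outside the 4 genes, 6 lay in no gene body. The strongest of them, with a score of 53.2, was also the widest of the region at 1237 bp (chr4:146023236-146024472), and all of its 50-base stretches (100%) were unique with up to 1 mismatch allowed. It began 5.9 kb after an assembly gap, and its neighbour of score 32.8 (chr4:146019311-146019634) began 1.9 kb after the same gap. The only peak of the region in an exon, with a score of 34.3 (chr4:145045848-145046018), was in the pseudogene Gm13223.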
